A study of Mus musculus with 16 samples.

Results

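The proliferin family was described through Prl2c2, Prl2c3 and Prl2c5, 3 of the 32989 genes in the count table, all 3 of which passed a mean count of 5 per library, as did 19049 genes in total. The family was selected because Prl2c5 was among the leading increases under N1-acetylspermidine (N1-AcSpd) in CD34+ cells, so the values of that contrast are given below as a description, without a test. The samples were cells of hair follicle stem cell (HFSC) organoids, which are epidermal cells of C57BL/6J mice kept 2 weeks in the so-called 3D-3C culture, in a matrix and a medium that holds serum, EGF, insulin, hydrocortisone, FGF2, VEGF and the ROCK inhibitor Y27632. Cells positive for integrin α6 were sorted into CD34- progenitors and CD34+ stem cells, either untreated or after 72 h with N1-AcSpd, an acetylated form of the polyamine spermidine, and 4 mice each gave 1 library to each of the 4 groups. The libraries were sequenced from the 3′ end of the RNA with molecular barcodes (UMIs), so that a count is a number of distinct tags rather than of reads, and they held 15480075 to 29074855 UMIs each. The untreated libraries are labelled WT, and the labels name no genetic change in any group. The 4 groups differed in the sort and in N1-AcSpd alone, and all of them shared the medium above.

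Proliferins are secreted glycoproteins of the prolactin and growth hormone family, best known from the placenta and from cultured cells stimulated with serum or growth factors, and they act on blood vessel growth. The mannose 6-phosphate receptor Igf2r is a known binding partner. A proliferin promoter is a textbook example of a composite element at which AP-1, the dimer of Fos and Jun proteins, and the glucocorticoid receptor meet, and proliferin has also been found in hair follicles and healing skin.

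The marker genes followed the sort in part. Of 10 listed hair follicle stem cell and keratinocyte markers, 6, Cd34 among them, were higher in CD34+ cells in both conditions. Another 2, Itga6 and Krt14, were lower, beside 32.1% and 33.3% of all tested genes that passed in either direction. Untreated, Itga6, the gene of integrin α6, differed by -0.34 ± 0.06 on the log2 scale (edgeR adjusted p = 0.000901), and Krt14 by -0.14 ± 0.05 (edgeR adjusted p = 0.0365). Krt5 and Lgr5 did not pass. Cd34 averaged 3.19 CPM (UMI counts per 1000000, TMM-scaled) in untreated CD34- cells and 49.98 CPM in untreated CD34+ cells, and the basal keratin gene Krt14 averaged 4872 to 5418 CPM in the 4 groups. The 9 fibroblast markers, of interest because fibroblasts are a known source of proliferin in culture, summed to between 0.307 and 2.56 CPM per library, and these sums were lower in CD34+ cells (0.307 to 0.933 CPM) than in most CD34- libraries (0.867 to 2.56 CPM). The part of these few cells in the proliferin counts was not tested. Of the endothelial markers, Pecam1 was listed at a mean of 1756 to 1987 CPM in the 4 groups while Tie1 stayed at or under 0.565 CPM, Cdh5 and Emcn had no count, so the high Pecam1 value goes against the other markers of its list. The immune markers summed to 1.41 to 4.99 CPM, with Cd207 and Tyrobp at 0, and the melanocyte markers to 28.0 to 36.1 CPM, of which all but Pmel and Mitf came to at most 1.22 CPM.

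The 3 genes lie in a cluster on chromosome 13 of the GRCm38 (mm10) assembly and are close copies of each other. Prl2c3 (ENSMUSG00000056457) spans chr13:12790816-12800079 on the minus strand, Prl2c2 (ENSMUSG00000079092) spans chr13:12996125-13005383 on the minus strand, and Prl2c5 (ENSMUSG00000055360) spans chr13:13182715-13191923 on the plus strand. The GENCODE transcripts of Prl2c2 and Prl2c3 matched at 99.5% of 842 aligned bases, those of Prl2c3 and Prl2c5 at 96.4% of 844. The coding part of the last exon, exon 5, is shown because 3′ reads come from this end of the transcript. It is given 5′ to 3′ on the gene strand with the stop codon included, and capitals mark every base at which the 3 copies are not all alike. The intervals are chr13:12996235-12996411 for Prl2c2, chr13:12790931-12791107 for Prl2c3 and chr13:13191645-13191815 for Prl2c5.
Prl2c2: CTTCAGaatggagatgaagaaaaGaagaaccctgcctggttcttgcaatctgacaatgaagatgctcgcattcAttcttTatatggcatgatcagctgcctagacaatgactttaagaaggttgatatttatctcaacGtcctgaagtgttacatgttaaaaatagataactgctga
Prl2c3: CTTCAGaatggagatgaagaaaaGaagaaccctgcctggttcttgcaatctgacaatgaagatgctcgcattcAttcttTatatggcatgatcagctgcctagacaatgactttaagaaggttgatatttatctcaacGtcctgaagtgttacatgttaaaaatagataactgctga
Prl2c5: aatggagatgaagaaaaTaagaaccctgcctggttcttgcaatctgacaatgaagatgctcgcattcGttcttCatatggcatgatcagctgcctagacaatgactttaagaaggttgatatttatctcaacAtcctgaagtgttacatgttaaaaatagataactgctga
Prl2c2 and Prl2c3 had 0 substitutions in these 177 bases. Prl2c5 differed from either by 4 substitutions, and the first 6 bases of the exon in the other copies have no counterpart in its annotated exon.

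The likeness sets how far the copies can be told apart. When each transcript was divided into overlapping windows of 31 bases, 100% of the windows in the last 300 bases of Prl2c2 were also found in Prl2c3, whereas 29.6% were found in Prl2c5. In the last 300 bases of Prl2c5, 25.6% of the windows were in none of Prl2c2, Prl2c3, the more distant copy Prl2c1 and the pseudogene Gm7040. The same share was 1.85% for Prl2c3 and 0% for Prl2c2. How reads that match several genes were assigned is not given in the sources used here, so Prl2c2 and Prl2c3 are reported as uncertain relative to each other, and a part of the Prl2c5 count may come from molecules of the other copies. It is also not known whether a molecule that matches Prl2c2 and Prl2c3 was counted in both genes, in which case the summed count would hold it more than once and the shares would not be shares of molecules.

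**Figure D1:**
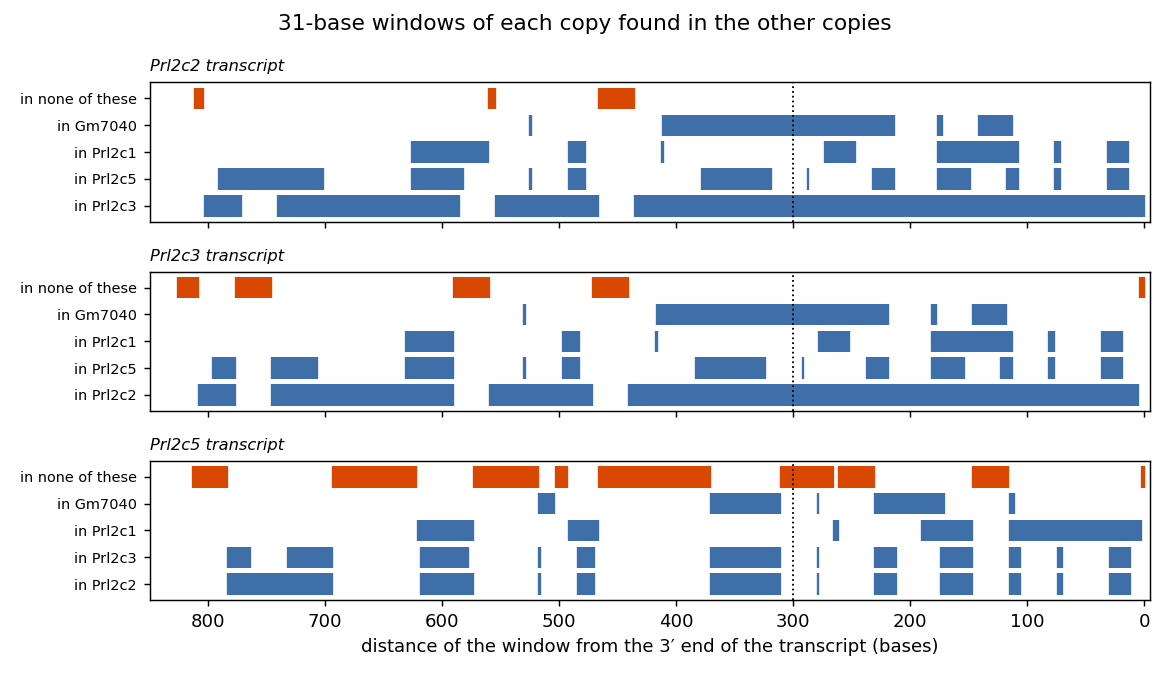
Windows of 31 bases along the transcripts of Prl2c2, Prl2c3 and Prl2c5, placed by their distance in bases from the 3′ end. Blue marks windows also found in the gene named on the left and orange marks windows found in none of the 4 other genes, and the dotted line is at 300 bases. Within 300 bases of the end Prl2c2 has no window of its own while Prl2c5 has 25.6%.

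The counts of Prl2c2 and Prl2c3 rose and fell nearly in proportion. In untreated CD34- cells Prl2c2 had 7578, 6861, 8652 and 10371 counts in mice 1 to 4, and Prl2c3 had 8041, 7311, 9176 and 11025. The ratio of Prl2c2 to Prl2c3 stayed between 0.932 and 0.958 in all 16 libraries, over a range of 2906 to 12643 Prl2c3 counts. The ratio was 0.932 to 0.943 in the 8 untreated libraries and 0.944 to 0.958 in the 8 treated ones, so that it did not overlap between them. The gap is narrow and was not tested, and these libraries include the CD34+ ones on which the family was chosen. Prl2c5 did not keep to such a ratio, as its count was between 0.152 and 0.492 of the Prl2c3 count.

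**Figure D2:**
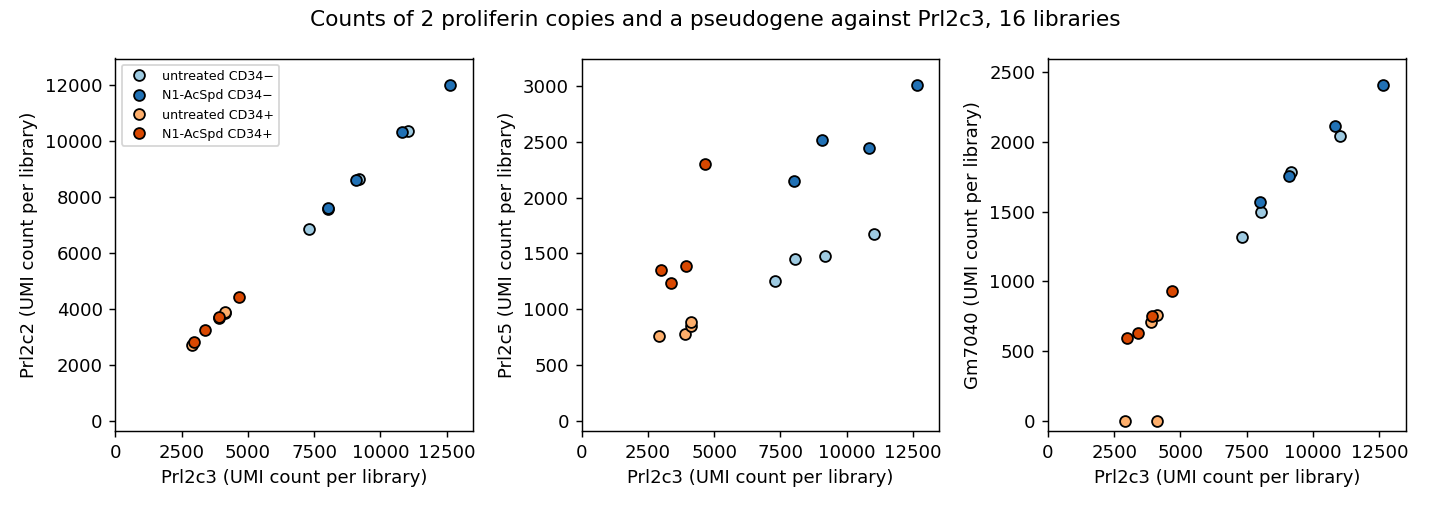
UMI counts per library of Prl2c2 (left), Prl2c5 (middle) and the pseudogene Gm7040 (right) against the UMI count of Prl2c3, 1 point per library, coloured by group. Prl2c2 lies along 1 line at 0.932 to 0.958 of Prl2c3. The ratio of Prl2c5 to Prl2c3 separates by treatment within each cell type but not across them. Gm7040 follows Prl2c3 except in 2 untreated CD34+ libraries, where it is at 0.

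Between the cell types, all 3 copies were lower in CD34+ stem cells than in CD34- progenitors, with and without N1-AcSpd, and Prl2c2 and Prl2c3 fell by 1.01 to 1.07 on the log2 scale in both conditions. These comparisons include the CD34+ libraries on which the family was chosen. In bulk samples such as these, fewer cells that make a transcript cannot be told apart from less of it per cell.

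Prl2c2 measured 326, 438, 375 and 468 CPM in untreated CD34- cells of mice 1 to 4 and 154, 201, 209 and 200 CPM in the CD34+ cells of the same mice. Every CD34+ library was below every CD34- library. The fitted log2 fold change was -1.07 ± 0.14 (SE, n = 4 per group), a 0.475-fold level, with an adjusted p of 6.22e-05 in edgeR's quasi-likelihood test. Under N1-AcSpd Prl2c2 measured 315, 426, 328 and 424 CPM in CD34- cells and 165, 213, 173 and 191 CPM in CD34+ cells. The groups again did not overlap, and the log2 fold change was -1.01 ± 0.14 (edgeR adjusted p = 8.48e-05).

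Prl2c3, whose counts run parallel to those of Prl2c2, measured 346, 467, 397 and 497 CPM in untreated CD34- cells and 165, 214, 224 and 212 CPM in untreated CD34+ cells. Its log2 fold change was -1.07 ± 0.14 untreated (edgeR adjusted p = 6.26e-05) and -1.01 ± 0.14 under N1-AcSpd (edgeR adjusted p = 8.12e-05). In treated cells its level was 331, 449, 345 and 444 CPM in the CD34- libraries and 173, 223, 183 and 199 CPM in the CD34+ libraries. Mouse 1 gave the lowest level of both genes in each of the 4 groups, and CD34- cells of mice 2 and 4 gave the highest levels.

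Prl2c5, the copy with most windows of its own, measured 62.2, 80.0, 63.9 and 75.7 CPM in untreated CD34- cells and 43.4, 42.9, 46.0 and 45.4 CPM in untreated CD34+ cells. The CD34+ libraries lay within a narrow band below all CD34- libraries. The log2 fold change was -0.67 ± 0.08, a 0.631-fold level (edgeR adjusted p = 3.61e-05). Under N1-AcSpd it measured 88.6, 107, 95.6 and 100.1 CPM in CD34- cells and 85.3, 79.2, 82.9 and 72.5 CPM in CD34+ cells. The groups lay closer together but did not overlap, with a log2 fold change of -0.29 ± 0.08 (edgeR adjusted p = 0.0140). This call was lost when library totals replaced TMM scaling (-0.17, adjusted p = 0.138), when mouse 2 was left out (-0.24, adjusted p = 0.0711) and when mouse 4 was left out (-0.23, adjusted p = 0.116).

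The 3 copies thus passed the test in both cell type comparisons, but Prl2c2 and Prl2c3 are not separate observations. The Prl2c5 call under N1-AcSpd was lost in the alternatives given above. Among all tested genes 32.1% passed untreated and 33.3% passed under N1-AcSpd. With the 3 counts summed into 1 feature, the family differed by -1.03 ± 0.13 (edgeR adjusted p = 3.92e-05) untreated and by -0.91 ± 0.13 (edgeR adjusted p = 9.80e-05) under N1-AcSpd.

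**Figure D3:**
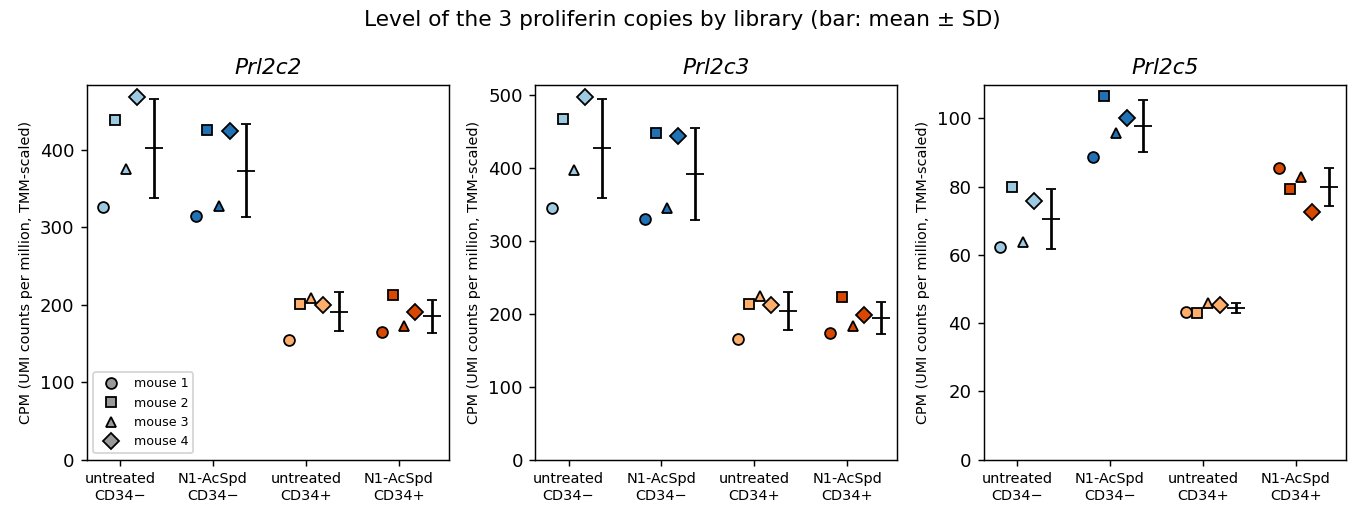
CPM (TMM-scaled UMI counts, axis from 0) of the 3 copies in the 16 libraries, grouped by sort and treatment. Symbols mark the mice and the bars give mean ± SD of 4 libraries. Prl2c2 and Prl2c3 separate by CD34 alone, while the Prl2c5 libraries also separate by treatment, with treated CD34+ cells (72.5 to 85.3 CPM) overlapping untreated CD34- cells (62.2 to 80.0 CPM).

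N1-AcSpd was compared with no treatment within each cell type. In CD34- progenitors Prl2c5 rose and the other copies did not pass the test. Prl2c5 went from 62.2, 80.0, 63.9 and 75.7 CPM to 88.6, 107, 95.6 and 100.1 CPM, higher in 4 of 4 mice and without overlap between the groups. The log2 fold change was 0.47 ± 0.08 (SE, n = 4 per group), a 1.39-fold level, with an adjusted p of 0.0261 in edgeR's quasi-likelihood test, in a comparison in which 0.614% of all tested genes passed. The number of genes passing was 117, and it was 351 with the mouse as a block, in which Prl2c5 differed by 0.47 (edgeR adjusted p = 0.0244).

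The call for Prl2c5 in CD34- cells lies near the threshold. It was lost, at an adjusted p of 0.123, when these 2 groups were fitted alone, and at adjusted p of 0.0618 to 0.0913 when any of 5 single libraries was left out, namely untreated CD34- of mice 1 and 3 and treated CD34- of mice 2, 3 and 4. It was also lost when any of the 4 mice was left out, at adjusted p of 0.122 to 0.193, while the log2 fold change stayed between 0.42 and 0.54 in all of these. Prl2c2 fell short of the test at -0.11 ± 0.14 (edgeR adjusted p = 0.849), and Prl2c3 at -0.12 ± 0.14 (edgeR adjusted p = 0.813). Both were lower in the treated library of all 4 mice, by less than the spread among the mice.

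In CD34+ cells, the contrast that chose the family, 62 genes passed (152 with the mouse as a block), which is 0.325% of those tested. Prl2c5 went from 43.4, 42.9, 46.0 and 45.4 CPM in untreated cells to 85.3, 79.2, 82.9 and 72.5 CPM in treated cells, a log2 difference of 0.85 ± 0.08 and a 1.80-fold level. The treated libraries lay above all untreated ones, in 4 of 4 mice. Prl2c2 and Prl2c3 differed by -0.04 ± 0.14 and -0.07 ± 0.14 on the log2 scale and were higher in 2 of 4 mice. The increase of Prl2c5 was thus 0.47 in CD34- cells and 0.85 in CD34+ cells, and the difference between them was not tested, because one side of it chose the gene.

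**Figure D4:**
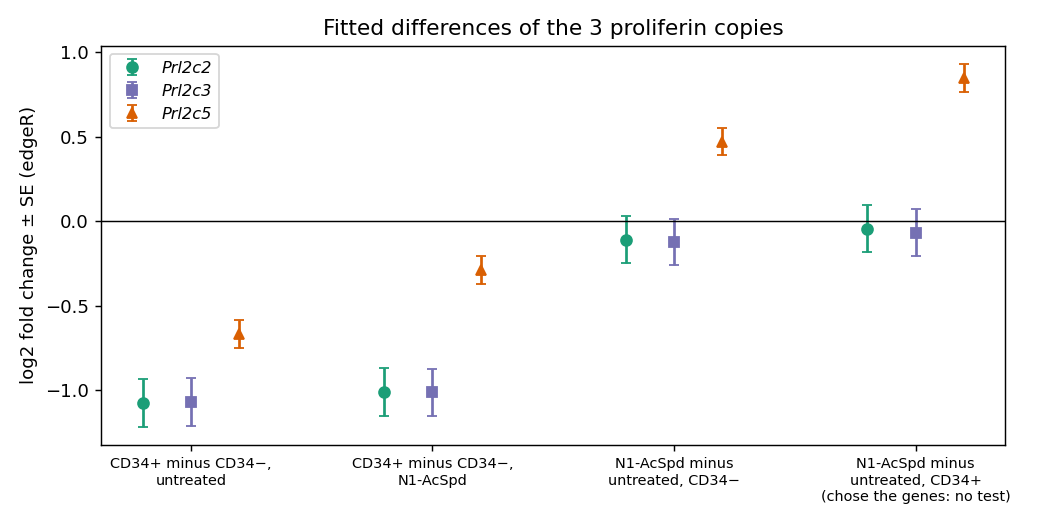
Log2 fold changes with SE from the edgeR fit of all 16 libraries for Prl2c2, Prl2c3 and Prl2c5 in the 4 comparisons named on the horizontal axis. Prl2c2 and Prl2c3 lie near -1 between the cell types and near 0 for the treatment, and Prl2c5 lies at -0.67, -0.29, 0.47 and 0.85, the last without a test.

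In order of the group means, Prl2c5 was highest in treated CD34- cells (97.8 ± 7.6 CPM, SD, n = 4), followed by treated CD34+ cells (80.0 ± 5.6), untreated CD34- cells (70.5 ± 8.7) and untreated CD34+ cells (44.4 ± 1.5). The second and the third group overlapped and were not compared by a test. Prl2c2 was ordered by cell type, with 402 ± 64 CPM in untreated and 373 ± 60 CPM in treated CD34- cells against 191 ± 25 and 185 ± 21 CPM in untreated and treated CD34+ cells. Neighbours of the same cell type overlapped. Since tags come from the 3′ end of a molecule and the transcripts are 842 to 857 bases long, the CPM of the copies were set side by side without division by length.

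These values were also expressed as the share of each copy in the summed count of the 3. Prl2c5 made up 8.48, 8.12, 7.65 and 7.27% of the sum in untreated CD34- cells of mice 1 to 4 and 12.1, 10.9, 12.4 and 10.3% in treated CD34- cells. The share was 11.96, 9.37, 9.60 and 9.93% in untreated CD34+ cells and 20.1, 15.4, 18.9 and 15.7% in treated CD34+ cells. It was thus higher in the treated library in 4 of 4 mice in either cell type and higher in CD34+ cells in 4 of 4 mice in either condition.

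The mean share rose by 3.55 percentage points with N1-AcSpd in CD34- cells, from 7.88 ± 0.53% to 11.4 ± 0.99% (SD, n = 4), with an exact two-sided permutation p of 0.0286, the smallest that 4 against 4 libraries can give. It was 2.34 points higher in CD34+ than in CD34- cells untreated and 6.10 points higher under N1-AcSpd, each with the same exact p of 0.0286. These cell type comparisons rest in part on the CD34+ libraries whose Prl2c5 values chose the family. All 9 comparisons (3 copies in the 3 contrasts that were tested) had this exact permutation p. Benjamini-Hochberg adjustment over them could therefore only return 0.0286, and it adds no support. When Prl2c2 and Prl2c3 were counted once, as their mean, the differences for Prl2c5 were 5.90 points for the treatment in CD34- cells. They were 3.92 and 9.28 points between the cell types, with the same exact p. The larger differences and the unchanged p follow from the arithmetic of this rescaling at shares as low as these, so they add no separate support. With signs flipped within mouse, which keeps the pairing, the smallest p that 4 mice can give is 0.125, and all 3 comparisons gave that value. In CD34+ cells the share went from 10.2 ± 1.2% to 17.5 ± 2.4% with treatment, given as a description. The shares of the copies add up to 100%, so the lower shares of Prl2c2 and Prl2c3 are the same change seen from the other side.

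**Figure D5:**
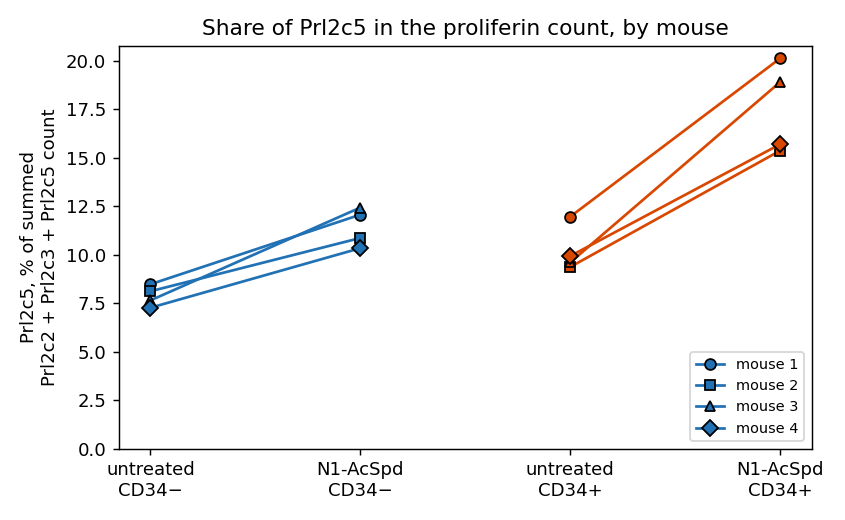
Prl2c5 as a percentage of the summed Prl2c2, Prl2c3 and Prl2c5 counts in each library (axis from 0), with lines joining the untreated and the treated library of a mouse within CD34- (blue) and CD34+ cells (orange). All 8 lines rise, from 7.27 to 8.48% to 10.3 to 12.4% in CD34- cells and from 9.37 to 11.96% to 15.4 to 20.1% in CD34+ cells.

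The bases ahead of the start of transcription are printed because the count of Prl2c5 relative to Prl2c3 differed with treatment, at 0.152 to 0.180 in untreated and 0.225 to 0.277 in treated CD34- cells. The RefSeq promoter table (GRCm38.p6) matched 2 of the 3 copies, Prl2c3 at chr13:12800080-12800329 on the minus strand and Prl2c5 at chr13:13182466-13182715 on the plus strand, 250 bases each. Capitals mark bases that differ or have no counterpart in the other sequence.
Prl2c3: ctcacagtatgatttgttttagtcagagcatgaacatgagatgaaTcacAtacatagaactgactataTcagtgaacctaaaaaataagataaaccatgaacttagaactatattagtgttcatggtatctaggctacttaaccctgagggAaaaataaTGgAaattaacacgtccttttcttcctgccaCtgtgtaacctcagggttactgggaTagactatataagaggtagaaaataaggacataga
Prl2c5: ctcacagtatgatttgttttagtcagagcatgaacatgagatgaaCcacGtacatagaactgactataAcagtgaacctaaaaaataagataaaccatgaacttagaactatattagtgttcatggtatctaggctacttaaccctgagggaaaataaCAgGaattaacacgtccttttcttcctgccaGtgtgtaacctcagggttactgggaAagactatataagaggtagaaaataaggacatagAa
The sequences differed by 8 substitutions in 249 aligned bases, with 1 base without counterpart in each. The AP-1 motif TGANTCA, searched on both strands, was found in Prl2c3 alone, beginning at base -209 from the start and spanning the first capital of its sequence. It was present in 7.82% of the 27025 genes in the table. TATAA began at -28 in Prl2c3 and at -29 and -186 in Prl2c5, a motif held by 25.8% of genes on either strand. The palindromic glucocorticoid response element was in neither window and in 0.0111% of genes. Only matches to these patterns were searched for, so a site that departs from them would be missed in either copy. The bases ahead of the first capital are the same in both sequences. Whether either promoter is bound or used in these cells was not tested.

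Apart from Prl2c1, the remaining prolactin family gave few counts or none. Prl2c1 averaged 71.2 CPM in untreated CD34- cells, where Prl2c5 averaged 70.5 CPM. Of 27 further genes of the family and its receptors that were listed, 13 had a count in any library and 5 passed the mean count of 5, among which 1 was higher and 2 were lower in CD34+ than in CD34- cells untreated, 0 were higher and 2 lower under N1-AcSpd, and 0 passed in either direction for the treatment. Among all tested genes 32.1% and 33.3% passed between the cell types and 0.614% and 0.325% for the treatment in CD34- and CD34+ cells. The median log2 difference of these 5 genes was -0.85 untreated and -0.99 under N1-AcSpd, against 0.02 and -0.01 over all genes tested. The median under N1-AcSpd is the value of Prl2c1 itself (-0.99 ± 1.24), which was at 0 in treated CD34+ cells of mouse 4 and did not pass.

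The genes that fell were Prl8a1 and Prl8a9, prolactin-like genes of the placenta. Prl8a9 measured 8.82, 7.16, 11.4 and 9.70 CPM in untreated CD34- cells and 1.48, 1.54, 2.39 and 1.44 CPM in untreated CD34+ cells, without overlap, a log2 fold change of -2.44 ± 0.17 (edgeR adjusted p = 5.63e-07). Under N1-AcSpd the fold change was -2.74 ± 0.17 (edgeR adjusted p = 1.62e-07). These fitted differences were larger than those of the 3 proliferins, without a test of that difference. With treatment it differed by 0.67 ± 0.16 in CD34- cells (12.9, 15.9, 14.8 and 15.3 CPM, above all untreated libraries), which did not pass at an edgeR adjusted p of 0.0769, and by 0.36 ± 0.17 in CD34+ cells (edgeR adjusted p = 0.401). Prl8a1 averaged 7.49 ± 0.64 CPM in untreated CD34- and 4.14 ± 0.55 CPM in untreated CD34+ cells, a log2 fold change of -0.85 ± 0.13 (edgeR adjusted p = 0.000165), and -1.02 ± 0.13 under N1-AcSpd (edgeR adjusted p = 2.68e-05).

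Prlr, the prolactin receptor, was higher in untreated CD34+ cells by 0.94 ± 0.33 on the log2 scale (edgeR adjusted p = 0.0406) at a level of 0.888 against 0.461 CPM, and differed by 0.03 ± 0.33 under N1-AcSpd. The growth hormone receptor Ghr, at 2.08 to 3.01 CPM, passed in neither comparison. Prl2c1, a more distant copy at chr13:27849342-27857788, measured 60.1 to 79.3 CPM in untreated CD34- cells and 0 to 40.9 CPM in untreated CD34+ cells. Under N1-AcSpd it measured 67.3 to 86.3 and 0 to 52.6 CPM. Every CD34+ library was thus below every CD34- library in both conditions. With 2 CD34+ libraries at 0 the SE was wide, at -1.63 ± 1.26 untreated and -0.99 ± 1.24 under N1-AcSpd on the log2 scale, and Prl2c1 passed in no comparison.

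A list of 20 genes around proliferin signalling and regulation held receptors, AP-1 members and glucocorticoid-induced genes, and 18 of them passed the mean count. Of these, 5 were higher and 2 lower in CD34+ cells untreated, 5 were higher and 2 lower under N1-AcSpd, and 0 passed for the treatment in either cell type. The 7 genes of each cell type comparison stand beside 32.1% and 33.3% of all tested genes, a share near to theirs. The medians over the 18 were 0.17 and 0.22 between the cell types and -0.04 for the treatment in either cell type, against all-gene medians of -0.01 to 0.02. Igf2r, the proliferin-binding receptor, averaged 4.86 to 5.91 CPM in the 4 groups and did not pass in any comparison, with a difference of -0.28 ± 0.12 between untreated cell types (edgeR adjusted p = 0.0801).

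Among the AP-1 genes, Fosl1, which encodes a Fos-related partner of Jun, fell alongside the proliferins in CD34+ cells. It measured 9.63 ± 0.81 CPM in untreated CD34- cells and 3.95 ± 0.83 CPM in untreated CD34+ cells (SD, n = 4), with a log2 fold change of -1.28 ± 0.18 (edgeR adjusted p = 0.000112), and -1.52 ± 0.18 under N1-AcSpd (edgeR adjusted p = 2.06e-05). Its gene overlaps Ccdc85b, from which 3′ reads may not be separable. Junb differed by -0.29 ± 0.06 under N1-AcSpd (edgeR adjusted p = 0.00184) and by -0.15 ± 0.06 untreated (edgeR adjusted p = 0.0779), and Fos and Jun passed in no comparison. The Junb gene overlaps Prdx2, so the same limit applies to it.

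The glucocorticoid-induced genes that passed went the other way from the proliferins. Sgk1, a kinase induced by glucocorticoids, rose from 79.1 ± 13 to 276 ± 42 CPM from CD34- to CD34+ cells untreated, a log2 fold change of 1.80 ± 0.17 (edgeR adjusted p = 2.76e-06). Fkbp5, a chaperone partner of the glucocorticoid receptor, was higher by 1.01 ± 0.07, and Tsc22d3, which encodes the glucocorticoid-induced leucine zipper protein, by 1.02 ± 0.14. All 3 were also higher under N1-AcSpd, by 1.90, 0.94 and 0.65, while the clock gene Per1 passed in untreated cells only, at 0.53 ± 0.14 (edgeR adjusted p = 0.0114). Nr3c1, the glucocorticoid receptor gene, passed in no comparison, at 6.77 to 8.10 CPM. Fgfr1, a receptor of FGF2 in the medium, was higher in CD34+ cells by 1.05 ± 0.10 untreated (edgeR adjusted p = 3.12e-06) and by 1.22 ± 0.10 under N1-AcSpd.

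No other annotated gene with a count overlapped a member. Within 500 kb of the 3 copies 14 further genes were tested, of which 2 were higher and 4 lower in CD34+ cells untreated, 2 higher and 3 lower under N1-AcSpd, and 0 passed for the treatment, shares near the 32.1% and 33.3% of all tested genes. The median over these neighbours was -0.17 untreated and -0.14 under N1-AcSpd, against 0.02 and -0.01 over all genes. The 14 are not all separate, since they include the pseudogene Gm7040, whose count follows that of Prl2c3 in most libraries. Heatr1 also overlaps Gm5928, which was likewise lower untreated, and Lgals8, which was higher. The neighbour with the lowest adjusted p was Ero1lb, an oxidase of the endoplasmic reticulum, at -0.78 ± 0.07 (93.1 ± 6.6 CPM in CD34- and 54.2 ± 4.8 CPM in CD34+ cells, edgeR adjusted p = 2.79e-06). Nid1, a basement membrane gene, went the other way, at 0.74 ± 0.22 (edgeR adjusted p = 0.0176).

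The genes whose log2 CPM followed the summed proliferin count most closely over the 16 libraries were Serpinb5 (Pearson r = 0.976), Qars (0.971), Krt6a (0.968), Dstn (0.964), S100a16 (0.963) and Avpi1 (0.961). These coefficients describe 16 libraries that share 4 groups and 4 mice, and all 6 genes had lower means in CD34+ than in CD34- cells. Krt6a, a keratin of the outer root sheath and of activated epidermis, averaged 3439 ± 308 CPM in untreated CD34- and 1814 ± 164 CPM in untreated CD34+ cells, a log2 difference of -0.92. Serpinb5, a serine protease inhibitor of epithelia, averaged 470 ± 33 and 350 ± 21 CPM in the same groups.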

How the data were processed

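The authors sorted organoid cells, made 3′ UMI libraries, demultiplexed them with FLEXBAR, pseudo-aligned them with Kallisto (0.45.0 in the submitters' processing notes) to mm10, intersected the tags with genes in BEDTools and deposited whole-number counts of unique tags per gene. The annotation release and the treatment of tags that match several genes are not given in the sources used here. Gene names and positions came from GENCODE M21 on GRCm38 (62 identifiers, 0.116% of counts, had no match), with promoters from RefSeq.

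The 19049 genes whose counts averaged 5 or more over the 16 libraries were fitted together in edgeR 4.0.16 (R 4.3.3) with TMM scaling and the quasi-likelihood test, at a Benjamini-Hochberg adjusted p of 0.05. SE are those of the fit, and CPM use TMM-scaled totals. Shares were compared by exact permutation of libraries in Python 3.11.15. Alternatives included DESeq2 1.42.0, other scalings and filters, a mouse block and omitted libraries or mice. Sequences were aligned with Biopython 1.88. The scripts were tested on simulated data.

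The labels give a replicate number and a code that the libraries of that number share, but name no animal. The number was taken as the mouse, because the paper's methods describe the replicates as independent donors. On that reading the groups are paired by animal. Deviations of the 24 same-mouse library pairs from their group means correlated at 0.0133 on average (-0.0689 to 0.0858). The members, gene lists and tests were chosen with earlier results of these data known. The named genes are the members, the prolactin family and proliferin context lists, tested genes within 500 kb, and the 6 named genes of mean count at least 50 most correlated with the summed count (predicted genes left out). The cell type contrasts share libraries with the treatment contrasts.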

Additional observations from a re-analysis of the deposited data

Results flagged for a closer look

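Of 36 groups of 4 libraries examined (levels of 6 genes and the shares of 3), 3 held a library that stood apart from the others by Dixon's criterion, which chance meets in about 1 of 20 groups. Prl2c1 was at 0 CPM in treated CD34+ cells of mouse 4, which allows at most 0.184 counts per 1000000 at 3 counts, beside 52.0 to 52.6 CPM in the other 3 libraries of the group. Prl8a1 was at 5.39 CPM in treated CD34+ cells of mouse 1, where the group median was 4.08 CPM. Prl8a9 was at 2.39 CPM in untreated CD34+ cells of mouse 3, where the group median was 1.51 CPM. None of the 3 proliferins was among them.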

How the results depend on the processing

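Prl2c2 and Prl2c3 kept their direction and their side of the threshold between the cell types under all 7 alternatives of scaling, filter, block, samples and tool and all 20 omissions, and so did Prl2c5 untreated. For Prl2c5 under N1-AcSpd the cell type difference was -0.17 with library totals, a scaling that moved the median of all genes by 0.12, and -0.37 to -0.23 with libraries or mice left out, with 18 of 20 omissions on the same side. Its treatment effect in CD34- cells was 0.47 with these groups fitted alone and 0.42 to 0.54 with libraries or mice left out, with 11 of 20 on the same side. The 3 counts summed gave -0.059 in CD34- cells (adjusted p = 0.934) and 0.066 in CD34+ cells, where Prl2c2 and Prl2c3 make up most of the sum. The mouse block changed no call in the fits of single copies. With signs flipped within mouse, the share differences of Prl2c2 (-1.23 and -2.95 points between cell types, -1.50 for the treatment in CD34- cells), Prl2c3 (-1.11, -3.15 and -2.05) and Prl2c5 (2.34, 6.10 and 3.55) all had an exact permutation p of 0.125, the smallest possible. With Prl2c2 and Prl2c3 counted once as their mean, an alternative chosen after seeing the data, every share difference was larger in size. For Prl2c5 the arithmetic of the rescaling makes it so, and the larger differences are no separate support. The treatment differences became -5.17, -6.08 and 11.3 points for Prl2c2, Prl2c3 and Prl2c5 in CD34+ cells and -2.66, -3.24 and 5.90 points in CD34- cells, and the cell type differences became -1.99, -1.93 and 3.92 points untreated and -4.50, -4.77 and 9.28 points under N1-AcSpd. Genes passing for the treatment in CD34- cells (117) numbered 35 without a filter, 351 with the block, 558 in DESeq2, 4 to 158 with libraries or mice left out, and 0 with edgeR on these groups alone, where an unadjusted p lay under 0.05 for 2645. In CD34+ cells (62) they numbered 35, 152, 431, 3 to 73, and 23. The causes were not tested. Depth limits Prlr, at a mean of under 1 CPM in each group, and tags shared between copies limit the values of the Prl2c genes and Gm7040.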

Other observations

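Prl2c1 and the pseudogene Gm7040, both close copies of the proliferins, were each at 0 in 2 CD34+ libraries and well above 0 in most others. Gm7040 (chr13:13320941-13323370) had 18.0 to 19.9% of the Prl2c3 count in 14 libraries and 0 in 2, the untreated CD34+ cells of mice 1 and 4. Prl2c1 kept no such fixed ratio, with 96.6 to 104% of the Prl2c5 count in untreated CD34- cells, 75.0 to 85.5% in treated CD34- cells and 31.3% (239 counts) in untreated CD34+ cells of mouse 1. It had 0 in 2 libraries, the untreated CD34+ cells of mouse 3 and the treated CD34+ cells of mouse 4. A count of 0 allows at most 0.164 to 0.184 counts per 1000000 in these libraries, counting error only, while Prl2c2, Prl2c3 and Prl2c5 themselves had 763 counts or more in each of the 4. In the last 300 bases 74.8% of the Gm7040 windows of 31 bases are also in Prl2c3, and 58.1% of those of Prl2c1 are in Prl2c5. The cause of the zeros was not tested.

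The genes most like Prl2c5 alone, a list made after its values were seen, were Esd (Pearson r = 0.954 over 16 libraries), Car13 (0.949), Reep4 (0.928), G6pdx (0.916), Noc2l (0.913) and Samd11 (0.912), the last pair overlapping each other on the genome. Since likeness to Prl2c5 includes its difference with treatment, their values are given without a test. Esd, which encodes the esterase and S-formylglutathione hydrolase ESD, averaged 221 ± 13 CPM in untreated and 287 ± 15 CPM in treated CD34- cells (SD, n = 4), and 191 ± 8.5 and 252 ± 7.2 CPM in CD34+ cells. G6pdx, the first enzyme of the pentose phosphate pathway, averaged 27.8 ± 1.8 and 34.4 ± 1.0 CPM in untreated and treated CD34- cells and 17.6 ± 1.3 and 24.8 ± 0.79 CPM in CD34+ cells. Both were higher in the treated library of 4 of 4 mice in either cell type. The G6pdx gene overlaps Ikbkg, from which its tags may not be separable.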
